A study of Mus musculus with 6 samples.

Results

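The data describe 10 genes of bone morphogenetic protein (BMP) signalling, namely the ligand gene Bmp4, the SMAD genes Smad1, Smad2, Smad3, Smad4, Smad6 and Smad7, and the target genes Id1, Id2 and Id3. They were given as a list and matched by symbol, and 10 of 10 were found among the 14408 genes of the deposited expression table. The labels give the source of all 6 libraries as the left ventricle, from C57BL/6J males aged 8 weeks when they were put on a high-fat diet together with L-NAME, which blocks the enzymes that make nitric oxide and was given in the water at 0.5 g/L. That regimen ran 8 to 12 weeks in both groups to model heart failure with preserved ejection fraction, so neither group is a healthy control. Afterwards 1 group received L-proline, an amino acid, at 300 mg/kg/day by intraperitoneal injection for 4 to 8 weeks and the other received PBS as vehicle. There were 3 libraries in each group. Whether each library came from its own mouse is not stated, so p-values measure only the spread between libraries, which may be technical.

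BMP ligands bind pairs of serine/threonine kinase receptors, and the activated receptors phosphorylate SMAD1, SMAD5 and SMAD9, while TGF-beta and activin receptors phosphorylate SMAD2 and SMAD3. Both sets of receptor-activated SMADs join SMAD4 to act in the nucleus, and SMAD6 and SMAD7 are inhibitory SMADs that block the receptors and are themselves switched on by the pathway. The ID genes are standard targets of SMAD1 and SMAD5, and their proteins bind basic helix-loop-helix transcription factors and keep these off DNA. In the heart BMP signalling is best known for its part in forming the muscle, valves and septa of the embryo.

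Of the 10 genes, 4 fell with L-proline (Bmp4, Smad6, Smad7 and Id2), 0 rose and 6 did not pass. The share of all 10500 tested genes that passed was 12.1% lower, 7.5% higher and 19.6% in either direction (limma on log2(FPKM + 1), Benjamini-Hochberg adjusted p under 0.05). All 10 members lay above the filter, a mean of at least 1 FPKM (fragments per kilobase, scaled to library size). The groups did not overlap for 6 members, all lower with L-proline, where 24% of all tested genes lay wholly lower and 16% wholly higher. The median log2 fold change was -0.20 over the members and -0.06 over all genes tested. Over all genes 788 were higher and 1268 lower. With median-of-ratios scaling the split was 1003 higher and 966 lower, and with quantile normalization 1079 and 1015. Without PBS 1 the number of genes that passed fell to 968 and the members to 2, and without PBS 3 to 870 and 2; Bmp4 and Smad6 were the 2 that passed in each case.

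RefSeq's promoter table (build GRCm38.p6) holds 6 of the 10 genes, and the 250 bases before the start site are shown for the 3 of those that fell. Capitals mark matches to 3 motifs searched on both strands, which were GGCGCC (a GC-rich SMAD element that reads the same on both strands), CAGAC (the core of the SMAD box) and TATAAA (the TATA box); no match overlapped another. The stretches lie at chr9:64022060-64022309 (minus strand) for Smad6, chr12:25096093-25096342 (minus strand) for Id2 and chr14:46390670-46390919 (minus strand) for Bmp4.
Smad6: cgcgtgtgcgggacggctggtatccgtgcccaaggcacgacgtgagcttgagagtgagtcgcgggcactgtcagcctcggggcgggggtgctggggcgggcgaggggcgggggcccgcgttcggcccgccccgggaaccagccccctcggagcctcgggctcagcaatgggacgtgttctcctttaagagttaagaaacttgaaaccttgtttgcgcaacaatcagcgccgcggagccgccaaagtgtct
Id2: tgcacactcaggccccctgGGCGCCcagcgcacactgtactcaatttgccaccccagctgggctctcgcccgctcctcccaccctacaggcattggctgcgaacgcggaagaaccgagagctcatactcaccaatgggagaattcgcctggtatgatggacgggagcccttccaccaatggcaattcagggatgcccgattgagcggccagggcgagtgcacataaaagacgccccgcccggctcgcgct
Bmp4: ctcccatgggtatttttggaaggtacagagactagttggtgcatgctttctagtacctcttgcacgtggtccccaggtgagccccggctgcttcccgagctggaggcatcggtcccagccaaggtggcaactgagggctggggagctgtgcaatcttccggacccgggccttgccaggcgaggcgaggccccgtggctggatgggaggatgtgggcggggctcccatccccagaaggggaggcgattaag
The Id2 window had 1 match, GGCGCC from 231 to 226 bases before the start, while the Smad6 and Bmp4 windows held 0 matches to these letters. Among 32851 promoter windows of the same length, 9.59% held GGCGCC, 42.2% CAGAC and 12.4% TATAAA. The Id3 window, not printed, held CAGAC at 2 places, and those of Smad1 and Smad3 held 0 matches. A match here is a description of the letters only. Entries for Id1, Smad2, Smad4 and Smad7 were not used here.

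Library totals, recovered from the FPKM steps, ran from 34990473 to 37498030 fragments. A gene of 1 kb with 0 fragments could lie at up to 0.0800 to 0.0857 FPKM, the worth of 3 fragments, counting error only. Pairs of libraries in a group differed by a chi-square per degree of freedom of 8.08 to 82.8, above counting noise. The libraries also differed in a way tied to gene length. The 2475 tested genes of 6000 bases or more, set against the 1323 genes under 1500 bases, stood at 0.169, -0.079 and 0.142 log2 units in PBS 1, 2 and 3 and at 0.111, -0.158 and -0.188 in L-proline 1, 2 and 3. This long-minus-short difference was thus high in PBS 1, PBS 3 and L-proline 1 and low in the other 3 libraries. It was computed from the same FPKM values, with Smad2 and Smad4 among the long genes and Id1, Id2 and Id3 among the short. It was not balanced between the groups, so a fit cannot fully tell it apart from the group difference. A fit with the long-minus-short difference as a covariate is given below where it changed a call, sign or value (by over 1.5 times). That holds for members and for list genes that passed or had the smallest p. For genes named for their level or role the fit is not given.

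RNA of heart muscle was nearly absent from libraries labelled as left ventricle. Of 13 cardiomyocyte markers 6 were listed, and apart from Tnnt2 these stayed at or below 0.212 FPKM in every library (Ttn at most 0.00880). Tnnt2 made up most of their summed level, which was 31.6 to 33.0 FPKM in PBS and 13.8 to 16.4 in L-proline. Of 10 endothelial markers 6 were listed, with a summed level of 1.24 to 1.31 FPKM in PBS and 1.22 to 1.32 in L-proline and Pecam1 at most 0.0735; Id1 and Smad6 are often studied in endothelium. Of 12 fibroblast markers 9 were listed, with sums of 2096 to 2143 FPKM in PBS and 2819 to 3196 in L-proline. Most of that sum was Col3a1, Col1a2 and Col1a1, which passed higher, as did Dpt. Pdgfra, a receptor gene of fibroblasts, passed lower (7.84 ± 0.463 and 5.97 ± 0.135 FPKM, adjusted p = 0.0215), and Dcn, Postn, Mfap5 and Fbln1 did not pass. Pericyte and smooth muscle markers (8 of 10 listed) summed to 986 to 1102 and 905 to 1100, with Myh11 at most 0.0459 and Rgs5 at most 0.145. Most of that sum was Acta2 (850 ± 51.6 and 826 ± 86.0). Notch3 passed higher (42.9 ± 0.785 and 55.2 ± 6.78, adjusted p = 0.0331), and Acta2, Tagln, Pdgfrb, Cspg4 and Cnn1 did not pass. Macrophage markers (5 of 10) summed to 19.7 to 22.2 and 21.8 to 25.4. Of these Cd68 passed higher (3.17 ± 0.536 and 5.19 ± 0.297, adjusted p = 0.0101), Cd14 and Lyz2 did not pass, and Csf1r and Mrc1 were under the filter. The part of the collagen genes, of the other marker genes and of Tnnt2 in the results on the 10 genes was not tested. In such bulk RNA, fewer cells of a type and less RNA per cell cannot be told apart.

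Levels per gene length placed Id3 highest, at a mean of 63.4 FPKM over the 6 libraries, then Id1 (27.9), Smad3 (19.2), Smad4 (16.9), Bmp4 (14.2), Smad1 (9.19), Smad7 (8.02), Id2 (4.76), Smad2 (3.86) and Smad6 (2.48). Over all 6 libraries the ranges of Smad3 and Smad4, of Smad4 and Bmp4, of Smad1 and Smad7, of Id2 and Smad2, and of Smad2 and Smad6 overlapped, and the other neighbours in this order did not. The order leans on the gene lengths behind the FPKM values. The recovered length was 7628 bases for Smad4 and 953 for Id3, against 3712 and 1791 bases of exons in GENCODE M21, and at the GENCODE lengths Smad4 (34.6 FPKM) would stand above Id3 (33.7).

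**Figure D1:**
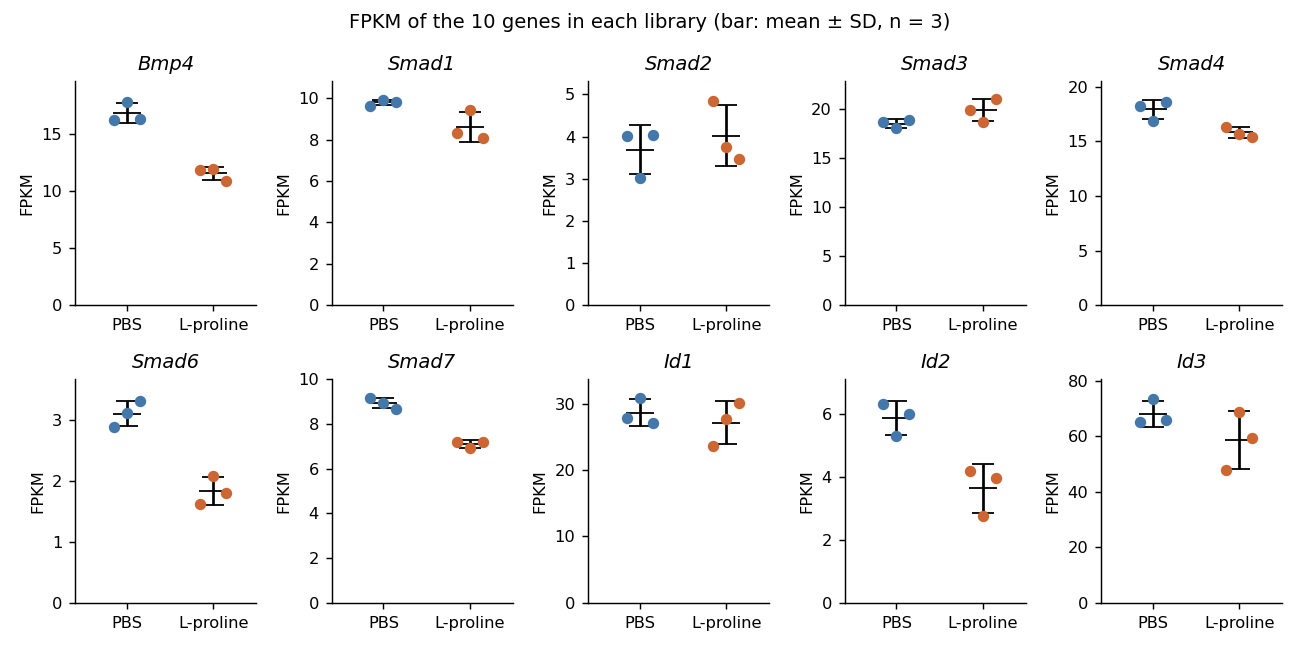
FPKM of each of the 10 genes (y axis, from 0) in the 3 PBS and 3 L-proline libraries; points are libraries in replicate order and bars give the mean ± SD. The groups do not overlap for Bmp4, Smad1, Smad4, Smad6, Smad7 and Id2, while Id1, Id3, Smad2 and Smad3 overlap.

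Bmp4, which encodes a secreted ligand that signals through SMAD1 and SMAD5, stood at 16.2, 17.8 and 16.3 FPKM in PBS 1, 2 and 3 and at 11.9, 11.9 and 10.9 in L-proline 1, 2 and 3. All L-proline libraries were below all PBS libraries, and the L-proline mean (11.6 ± 0.570, SD, n = 3) was 0.688 of the PBS mean (16.8 ± 0.887). Its log2 fold change was -0.50 ± 0.08 (SE; limma, adjusted p = 0.00443), from 825 to 1317 fragments per library. In GENCODE M21 the exons of Bmp4 overlap those of the antisense gene Gm15217, which was not analysed here, and without strand information the 2 cannot be told apart. Bmp4 was the most abundant BMP ligand of the lists, since of 12 others 3 were listed and none averaged 1 FPKM. Bmp6 was at 0.554 ± 0.0709 and 0.428 ± 0.108, Bmp5 at 0.277 ± 0.0510 and 0.439 ± 0.224, and Bmp8a at 0.458 ± 0.113 and 0.583 ± 0.0767 (PBS, then L-proline; SD, n = 3), all under the filter.

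Smad1 encodes the receptor-activated SMAD of the BMP branch. It read 9.64, 9.89 and 9.83 FPKM in PBS and 8.31, 9.41 and 8.05 in L-proline, close together in PBS and wholly lower but more scattered in L-proline. This difference, -0.17 ± 0.08 on the log2 scale, did not pass (adjusted p = 0.175), with a 95% interval from -0.36 to 0.02, and was -0.10 after quantile normalization. Its close relative Smad5, not among the 10 genes, was at 16.8 ± 1.07 and 17.3 ± 1.85 FPKM (adjusted p = 0.826). Smad9, the third of this branch, lay under the filter with 105, 66 and 51 fragments in PBS 1, 2 and 3. It had 42, 33 and 31 fragments in L-proline 1, 2 and 3, below every PBS library.

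Smad2 and Smad3 carry TGF-beta and activin signals, and neither passed. Smad3 was at 18.7, 18.0 and 18.8 FPKM in PBS and 19.9, 18.7 and 20.9 in L-proline, with overlapping groups and a log2 fold change of 0.10 ± 0.07 (adjusted p = 0.380; 95% interval -0.07 to 0.26), or 0.15 with median-of-ratios scaling. Smad2, the longest of the 10 genes with a recovered length of 14167 bases, was at 4.02, 3.02 and 4.04 in PBS and 4.83, 3.76 and 3.47 in L-proline. L-proline 1 was highest and PBS 2 lowest, and the log2 fold change was 0.10 ± 0.13 (adjusted p = 0.643; 95% interval -0.21 to 0.41), or 0.19 after quantile normalization. Within PBS, Smad2 was lowest in the library whose long-minus-short difference was lowest, and within L-proline it was highest where that difference was highest. With this library score as a covariate, a model chosen after seeing the data, Smad2 was higher in L-proline by 0.29 (adjusted p = 0.0265; 0.0265 to 0.961 over the alternatives).

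Smad4, the partner shared by both branches, read 18.2, 16.9 and 18.6 FPKM in PBS and 16.3, 15.7 and 15.4 in L-proline. Every L-proline library was below every PBS library, the nearest being PBS 2 and L-proline 1. Its log2 fold change of -0.17 ± 0.07 did not pass (adjusted p = 0.143), with a 95% interval from -0.34 to 0.00.

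The inhibitory SMAD genes both fell. Smad6, whose protein acts mainly against the BMP branch, went from 2.89, 3.12 and 3.32 FPKM in PBS 1, 2 and 3 to 1.62, 2.09 and 1.80 in L-proline 1, 2 and 3. The groups were well apart, and the L-proline mean was 0.591 of the PBS mean, 1.84 ± 0.237 against 3.11 ± 0.213 (SD, n = 3). The log2 fold change was -0.54 ± 0.10 (adjusted p = 0.00803) on 179 to 366 fragments per library. Because 1 is added to these low values, that figure understates the change, and with voom on recovered fragments it was -0.76 (adjusted p = 0.00983; 0.00478 to 0.0491 over the alternatives).

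Smad7, which restrains both branches by blocking receptors and drawing ubiquitin ligases to them, went from 9.15, 8.95 and 8.68 FPKM to 7.21, 6.92 and 7.20. Spread within each group was small, 8.93 ± 0.234 in PBS and 7.11 ± 0.168 in L-proline (SD, n = 3), and the L-proline mean was 0.796 of the PBS mean. The log2 fold change was -0.29 ± 0.07 (adjusted p = 0.0286). It lost the call in 6 of 14 alternatives, among them median-of-ratios scaling (adjusted p = 0.0627) and quantile normalization (adjusted p = 0.121), and when any PBS library or L-proline 2 was left out (adjusted p = 0.0727 to 0.123); over all alternatives the adjusted p was 0.0228 to 0.123.

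**Figure D2:**
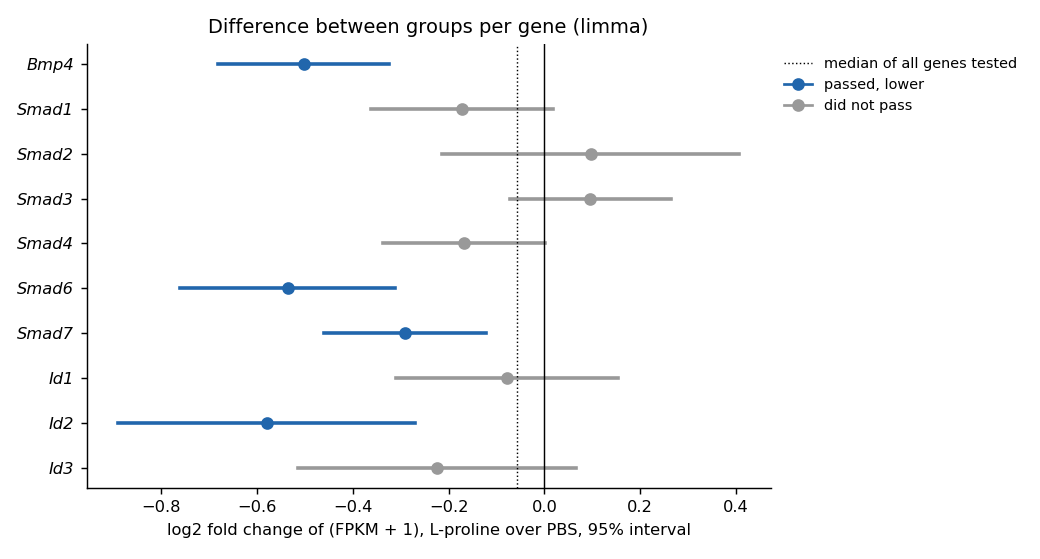
Log2 fold change of FPKM + 1 (x axis, L-proline over PBS) for each of the 10 genes, with its 95% interval from limma; the dotted line is the median of all genes tested. Intervals of Bmp4, Smad6, Smad7 and Id2 lie below 0, and those of the 6 grey genes reach or cross it.

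Of the ID genes, which encode inhibitors of helix-loop-helix factors, Id2 fell. It stood at 6.33, 5.30 and 6.02 FPKM in PBS 1, 2 and 3 and at 4.20, 2.76 and 3.95 in L-proline 1, 2 and 3. No library of a group reached the other, and the L-proline mean was 0.619 of the PBS mean, 3.64 ± 0.767 against 5.88 ± 0.531 (SD, n = 3). Its log2 fold change was -0.58 ± 0.13 (adjusted p = 0.0214) on 123 to 302 fragments. Without PBS 1 the adjusted p was 0.0860 and without PBS 3 it was 0.0855 (0.0105 to 0.0860 over the alternatives).

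Id1 read 27.9, 30.9 and 27.1 FPKM in PBS and 23.7, 27.6 and 30.1 in L-proline, so the groups overlapped and the lowest value was L-proline 1. The log2 fold change was -0.08 ± 0.10 (adjusted p = 0.611), with a 95% interval from -0.31 to 0.15, and was -0.03 with median-of-ratios scaling. Id3 read 65.2, 73.5 and 65.7 in PBS and 47.9, 68.7 and 59.4 in L-proline, again lowest in L-proline 1, and its log2 fold change of -0.22 ± 0.13 did not pass (adjusted p = 0.238; 95% interval -0.52 to 0.07). Both genes are short, with recovered lengths of 1160 and 953 bases, and both were highest within PBS in PBS 2, where long genes were lowest against short ones. Id2, also short at 1272 recovered bases, was instead lowest within PBS in PBS 2 (5.30 FPKM) and within L-proline in L-proline 2 (2.76). In GENCODE M21 the exons of Id3 and Id2 come to 1791 and 2438 bases. With the length score as a covariate, Id1 was lower by a log2 value of -0.21 (adjusted p = 0.0439; 0.0439 to 0.920 over the alternatives) and Id3 by -0.40 (adjusted p = 0.0144; 0.0144 to 0.488 over the alternatives). That covariate brought the members that passed from 4 to 7, with 6 lower and 1 higher. Over all 10500 genes it brought the number that passed from 2056 to 2999, with 1905 lower and 1094 higher.

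Id2 made up 4.83% to 6.37% of the summed FPKM of the 3 ID genes in PBS and 2.79% to 5.54% in L-proline, ranges that overlap. That sum was 99.4, 109.7 and 98.9 FPKM in PBS 1, 2 and 3 and 75.8, 99.1 and 93.5 in L-proline 1, 2 and 3, so L-proline 2 lay inside the PBS range. The ratio of Id2 to Id1 was 0.227, 0.171 and 0.222 in PBS and 0.177, 0.10 and 0.131 in L-proline. These ratios overlapped, with a difference of -0.63 on the log2 scale (exact permutation test, two-sided, p = 0.2). With 3 against 3 libraries this test cannot give a p under 0.1, so it cannot decide whether Id2 and Id1 responded differently.

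Ratios within a library do not change when all its genes are scaled by a common factor. Quantile normalization, or a library difference tied to gene length, can still change them. Smad6 over Smad1, the inhibitor against the BMP-branch SMAD, was 0.300, 0.316 and 0.338 in PBS and 0.195, 0.223 and 0.224 in L-proline, with every L-proline library lower. Smad7 over Smad3 was 0.491, 0.497 and 0.462 in PBS and 0.362, 0.370 and 0.344 in L-proline, also without overlap. The differences were -0.57 and -0.43 on the log2 scale, each with an exact permutation p = 0.1 (two-sided), the smallest that 3 against 3 libraries can give, and 0.233 when adjusted over the 7 ratios examined. Smad7 over Smad4 overlapped between groups, from 0.467 to 0.531 in PBS and 0.441 to 0.467 in L-proline (exact permutation p = 0.2). Smad1 over Smad3 was 0.517 to 0.549 in PBS and 0.385 to 0.503 in L-proline, without overlap, although neither gene passed. That difference was -0.29 on the log2 scale (exact permutation p = 0.1, adjusted 0.233). The 7 ratios were chosen after the values were seen.

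**Figure D3:**
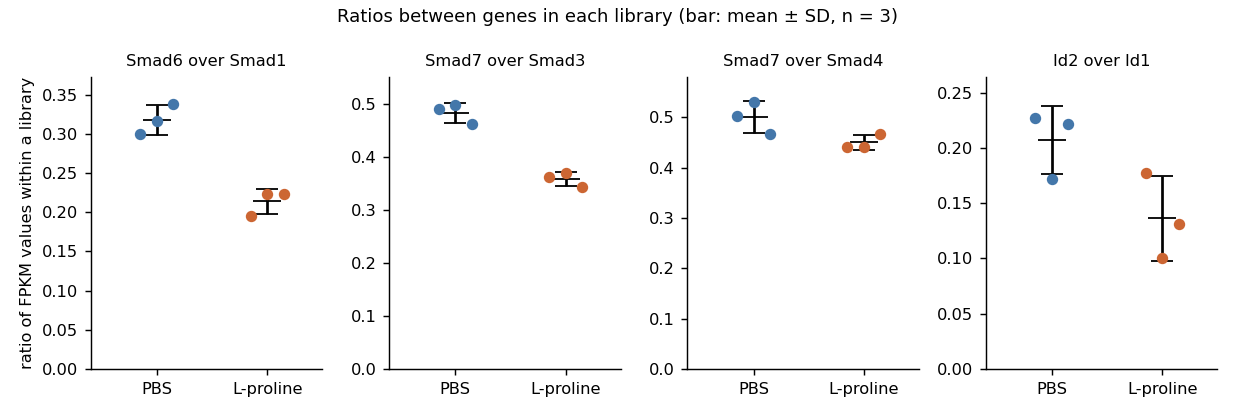
Ratio of FPKM values of 2 genes within each library (y axis, from 0) for 4 pairs, with the mean ± SD of 3 libraries per group. Smad6 over Smad1 and Smad7 over Smad3 are lower in all L-proline libraries than in any PBS library, while Smad7 over Smad4 and Id2 over Id1 overlap.

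The genes whose pattern over the 6 libraries was most like each ID gene were picked among 7506 genes by Pearson's r of log2(FPKM + 1), as a description. For Id1 these were Ppp1r37 (r = 0.998), Rbck1 (0.994) and Actn4 (0.993). For Id2 they were Pmp22 (0.998), a myelin and growth-arrest gene, Galns (0.994) and Hid1 (0.992). For Id3 they included Tuba1a (0.999) and Mcm2 (0.994). Tuba1a, a tubulin gene, shared the low value of L-proline 1 with Id3, at 326 FPKM against 447 and 391 in L-proline 2 and 3. The 6 points share library depth and the group difference, and 6 libraries cannot set such genes apart from many others with a similar course.

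Among BMP receptors and coreceptors, 1 rose and 0 fell of 9 tested, and the median log2 fold change was -0.04. The shares over all genes tested were 7.5% higher and 12.1% lower. Rgma, a coreceptor for BMPs, rose from a mean of 9.51 ± 0.178 FPKM to one of 12.4 ± 1.23 (0.35 ± 0.09 on the log2 scale, adjusted p = 0.0280). It lost the call without any PBS library or without L-proline 3 (adjusted p = 0.0593 to 0.119; 0.0201 to 0.119 over the alternatives). The type I receptor genes Acvr1 (22.3 ± 0.372 and 22.3 ± 1.41) and Bmpr1a (19.6 ± 3.37 and 17.2 ± 5.90) were the most abundant receptors. For Bmpr1a the log2 fold change was -0.22 (adjusted p = 0.524), and it ran from -0.45 to 0.14 over the alternatives (adjusted p = 0.0715 to 0.970). The endothelial type I receptor gene Acvrl1 stood at 1.10 ± 0.186 and 0.924 ± 0.225 and Bmpr1b at most at 0.0462. Bmpr2, the BMP type II receptor gene, was at 11.5, 6.87 and 9.63 FPKM in PBS 1, 2 and 3 and at 9.91, 5.78 and 4.09 in L-proline 1, 2 and 3. These groups overlapped (log2 fold change -0.49 ± 0.27, adjusted p = 0.237), and the values followed the long-minus-short difference of the libraries, lowest in PBS 2 within PBS and highest in L-proline 1 within L-proline. Without L-proline 1 the log2 fold change was -0.79 (adjusted p = 0.0223), and with the length score as a covariate it was -0.04 (adjusted p = 0.826; 0.0223 to 0.826 over the alternatives). Acvr2a, a type II receptor gene, differed by -0.23 on the log2 scale (adjusted p = 0.458), and by 0.11 with the length score (adjusted p = 0.385) and -0.46 without L-proline 1 (adjusted p = 0.0482; 0.0482 to 0.816 over the alternatives). Neo1 differed by 0.15 (adjusted p = 0.345), and by 0.27 with the length score (adjusted p = 0.0611; 0.0611 to 0.634 over the alternatives).

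Of 10 tested genes for secreted and membrane antagonists and modulators, 2 rose, 4 fell and 4 did not pass (median log2 fold change -0.18). Over all genes tested, 7.5% were higher and 12.1% lower, and whether this list departs from those shares was not tested. Chrd, which encodes chordin, a trap for BMP ligands, fell from 2.17, 2.00 and 2.32 FPKM in PBS 1, 2 and 3 to 0.643, 0.930 and 0.871 in L-proline 1, 2 and 3, with a fitted log2 change of -0.80 ± 0.10 (adjusted p = 0.00167). The added 1 shrinks this low gene's value, which was -1.32 with a pseudocount of 0.1 and -1.42 with voom, and the L-proline mean was 0.377 of the PBS mean. Fstl3, a follistatin-like binder of activins, fell from 6.60 ± 0.498 to 3.95 ± 0.0788 (-0.62 ± 0.08), and Crim1, a membrane protein that holds BMPs, from 12.7 ± 0.980 to 7.79 ± 0.789 (-0.64 ± 0.10). Bmper, a secreted modulator that binds BMPs, rose from 19.8 ± 0.460 to 25.9 ± 1.80 (0.37 ± 0.08, adjusted p = 0.0131), but not without PBS 1 (adjusted p = 0.0642) or PBS 3 (0.0626; 0.00545 to 0.0642 over the alternatives). Chosen after their values were seen, the other genes that passed were the antagonist gene Nbl1 (-0.35 ± 0.08) and Bmp1 (0.24 ± 0.07), which encodes not a ligand but a protease that cleaves chordin and procollagen. Both lost the call without any PBS library or without L-proline 2, and Bmp1 also without L-proline 3 (adjusted p up to 0.0970 for Nbl1 and 0.149 for Bmp1). With median-of-ratios scaling Nbl1 did not pass either (adjusted p = 0.0603). Gremlin 1 (Grem1), an antagonist, was second in mean level to Bmp1 on this list, at 72.8 ± 4.89 and 83.6 ± 20.3 FPKM (adjusted p = 0.507). It passed, higher, in 1 of 14 alternatives (adjusted p = 0.0228 to 0.868 over the alternatives). In L-proline 1 and 2 it stood above Bmp1 (98.0 and 92.5 against 87.0 and 90.0 FPKM), and in L-proline 3 below it (60.4 against 96.4). Bambi, a decoy receptor gene, was at 0.377 ± 0.0406 and 0.354 ± 0.0799 FPKM, under the filter.

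**Figure D4:**
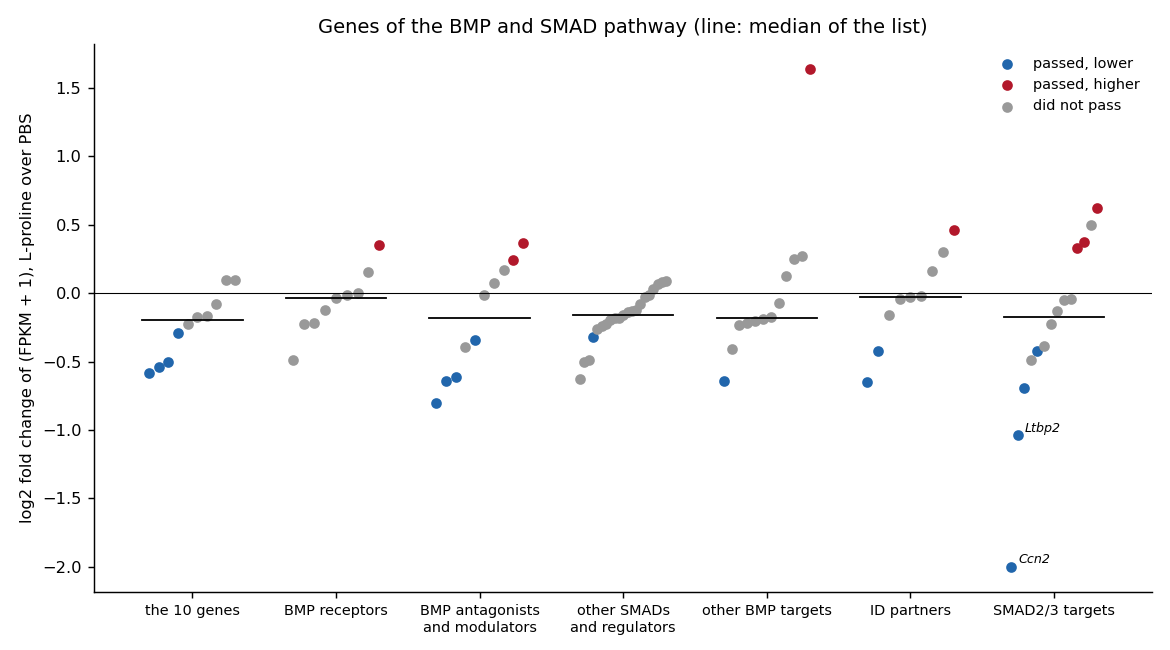
Log2 fold change of FPKM + 1 (y axis, L-proline over PBS) of each tested gene, for the 10 genes and the 6 lists with tested members; colours show whether a gene passed and black lines are list medians. Medians run from -0.20 for the 10 genes to -0.03 for the ID partners and targets. The 10 genes and the other SMADs and regulators have passing genes in the lower direction only, and the receptors 1 in the higher.

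Among the other SMADs, corepressors, ubiquitin ligases and phosphatases, 1 of 21 tested genes fell and 0 rose (median log2 fold change -0.16). The shares over all genes tested were 12.1% lower and 7.5% higher. Nedd4l, a ubiquitin ligase that marks activated SMAD2 and SMAD3 for destruction, fell from a mean of 3.47 ± 0.294 FPKM to one of 2.57 ± 0.106 (-0.32 ± 0.09, adjusted p = 0.0380). It lost the call in 8 of 13 alternatives, among them the omission of any library but L-proline 1 (adjusted p = 0.0153 to 0.159 over the alternatives). The corepressor gene Tgif2 and the phosphatase genes Ctdsp2 and Ctdspl did not pass, at adjusted p = 0.112, 0.0962 and 0.0783; Ctdspl passed in 1 alternative, voom (adjusted p = 0.0404; 0.0404 to 0.365 over the alternatives). The SMAD ubiquitin ligase genes Smurf1 (15.3 ± 0.782 and 13.9 ± 0.883 FPKM) and Smurf2 (19.6 and 17.2) did not pass either.

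Of 12 other tested genes known to answer BMP-SMAD signals, 1 was higher and 1 lower, beside the 19.6% of all genes that passed in either direction, and the median log2 fold change was -0.18. Dlx3, a homeobox gene, fell from a mean of 8.66 ± 0.723 FPKM to one of 5.20 ± 0.566 (-0.64 ± 0.10, adjusted p = 0.00479). Runx2, the master gene of bone formation, was at 9.78 ± 1.49 and 7.11 ± 0.969 (-0.41 on the log2 scale, adjusted p = 0.0635). It passed without PBS 2 (adjusted p = 0.0311) or L-proline 1 (0.0265), and with the length score its value was -0.22 (0.0779; 0.0265 to 0.215 over the alternatives). Junb was at 142 ± 10.5 and 121 ± 6.34 (-0.23, adjusted p = 0.0687), and passed with quantile normalization (adjusted p = 0.0276) and with the length score (-0.32, 0.00507; 0.00507 to 0.181 over the alternatives).

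Of the basic helix-loop-helix and other partners or targets of ID proteins, 1 of 9 tested genes rose and 2 fell (median log2 fold change -0.03). The shares over all genes tested were 7.5% higher and 12.1% lower. The E protein gene Tcf3, a direct partner, was at 37.5 ± 2.47 and 36.8 ± 3.28 FPKM (adjusted p = 0.838). Its log2 fold change was -0.03, and from -0.14 to 0.04 over the alternatives. Bhlhe40, a repressor gene of the clock and hypoxia responses, fell from 53.6 ± 3.55 to 33.7 ± 1.56 (-0.65 ± 0.08, adjusted p = 0.00139), and its relative Bhlhe41 was at 6.86 ± 0.388 and 8.71 ± 0.876 (adjusted p = 0.0553). Bhlhe41 passed, higher, in 6 of 14 alternatives, among them median-of-ratios scaling (adjusted p = 0.0429), quantile normalization (0.0282), voom (0.0472), the length score (0.0475) and the omission of L-proline 2 (0.0495; 0.0282 to 0.181 over the alternatives). Ets2 rose from 47.5 ± 3.02 to 66.0 ± 5.68 (0.46 ± 0.09, adjusted p = 0.00892). Scx, the tendon gene scleraxis, fell from 19.4 ± 2.72 to 14.2 ± 1.49 (-0.42 ± 0.12, adjusted p = 0.0400) and lost the call in 9 of 14 alternatives, with each of the 6 libraries left out among them (adjusted p = 0.0568 to 0.101 there).

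On the TGF-beta side, 3 of 14 tested target genes of SMAD2 and SMAD3 rose and 4 fell, with a median log2 fold change of -0.18. Ccn2 (connective tissue growth factor) fell from 46.4 ± 7.75 to 11.2 ± 4.38 FPKM and Ltbp2, a matrix protein, from 33.3 ± 2.09 to 15.8 ± 2.13. Cdkn1a, a cell cycle inhibitor that p53 also induces, rose from 244 ± 10.4 to 377 ± 34.1. Tgfbi, which fell, and the collagen genes Col1a1 and Col1a2, which rose by 0.33 ± 0.08 and 0.37 ± 0.07 on the log2 scale, were chosen after their values were seen. Tgfbi lost the call without any PBS library or L-proline 2 (adjusted p up to 0.111) and with quantile normalization (0.0760), and both collagen genes without PBS 1 (0.0898 for Col1a1 and 0.0539 for Col1a2), Col1a1 also without PBS 3 (0.0733). Over the lists together, 8 of 73 tested genes rose and 12 fell, beside the 7.5% and 12.1% of all genes; without PBS 1 a total of 11 passed, and without PBS 3 a total of 12.

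**Figure D5:**
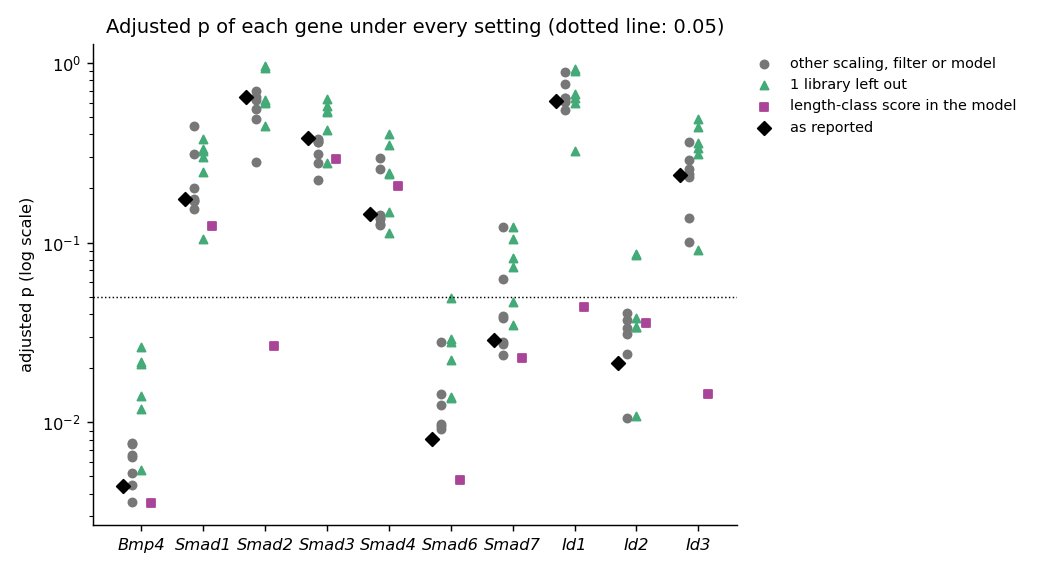
Adjusted p (y axis, log scale) of each of the 10 genes as reported and under each alternative; the dotted line is the threshold of 0.05. Every point of Bmp4 and Smad6 lies below the line, those of Smad7 and Id2 lie on both sides, and for Smad2, Id1 and Id3 the point with the length score in the model is the one below it.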

How the data were processed

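RNA sequencing of 6 libraries (3 PBS, 3 L-proline) was analysed from 1 table of FPKM values computed and deposited by the authors, per the file headers. Per the labels' protocols, libraries of polyadenylated RNA were made with a NEBNext Ultra kit and read in pairs on a NovaSeq. HISAT2, HTSeq 0.13.5 and GRCm39 are named, per the submitters' processing notes, without a role. Groups and replicate numbers came from the titles. FPKM depends on the gene model used and on a library's other abundant genes.

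Library totals were solved from 13 mitochondrially encoded genes, after which the shortest gene length turning all 6 values of a gene into whole fragments (tolerance 0.01) was sought; it was found for 14407 of 14408 genes. Differences were tested with limma 3.58.1 in R 4.3.3 on log2(FPKM + 1) (mean-variance trend, two-sided) for genes with a mean of at least 1 FPKM, with Benjamini-Hochberg adjustment over all 10500 and a threshold of 0.05. Alternatives were another pseudocount, filters, scalings, voom, a replicate block, a length-score covariate and each library left out. Ratios were compared by exact permutation tests. The steps were tested on simulated data. The members and the 7 pathway lists were chosen with earlier results of these data known. Genes named are the 10 members, up to 4 genes per list with the smallest unadjusted p, genes named for their level or role, and the 3 genes most like each ID gene (mean of at least 5 FPKM, predicted models left out). Some genes that this rule picks are counted but not reported by name here. Where any other gene is named, the text says so.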

Additional observations from a re-analysis of the deposited data

How the results depend on the processing

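Across the alternatives, with 1 library left out in turn, the members that passed ranged from 2 to 4, all genes that passed from 870 to 2762 and pathway genes from 11 to 27. With a filter at a mean of 5 FPKM, 2 members passed because Smad2, Smad6 and Id2 were no longer tested. Of all 7568 genes tested with that filter, 1661 passed. With the length score of the libraries as a covariate, added after seeing the data, 7 members passed, as did 2999 of all 10500 genes. Acvr2a reversed to 0.11 with that score. Leaving out 1 library, Smad2 ran from -0.0165 (L-proline 1) to 0.1756 (L-proline 3) and was also below 0 without PBS 2 (-0.0114), and Id1 ran from -0.1548 (L-proline 3) to 0.0133 (L-proline 1), so both changed sign. The cause of these changes was not tested. Bmp4 kept its call in 14 of 14 alternatives and Smad6 in 13 of 13. Of all values for single genes and ratios under the alternatives, 510 kept their direction and, for genes, their side of the threshold. Another 49 lost the call, 16 gained it and 4 changed sign. Ratios were judged by direction only.

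With the replicate number as a block, 4 members, 23 pathway genes and 2383 genes in all passed. The numbers are not taken to pair libraries. Deviations of same-numbered libraries correlated at 0.651, 0.416 and -0.348. Those of differently numbered libraries ran from -0.75 (PBS 2 with L-proline 1) to 0.525 (PBS 2 with L-proline 3), a range that overlaps.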
